A study of Sparus aurata with 8 samples.

Results

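Ejaculated spermatozoa (SPZ_EJ) of the gilthead seabream, *Sparus aurata*, made up 4 of the 8 RNA-seq libraries in the series, and their mRNAs are described here by abundance and by how far the 4 pools differed. The libraries were chosen by their label alone. Each SPZ_EJ library came from sperm pooled from 3 adult males kept in captivity, collected in the natural spawning season by pressing the abdomen of sedated fish. The other 4 libraries were haploid germ cells (HGC), type II spermatocytes and spermatids sorted by flow cytometry from testis, and they serve only as a description beside the sperm values. A sort is described for HGC only. In the paper the sperm were checked by motility, immunofluorescence microscopy and RNA size profiles with little ribosomal RNA. From the microscopy and the profiles it concludes that hardly any other cells were in these samples. The labels give no difference in treatment, age or stage among the SPZ_EJ pools, so the pools are replicates of 1 group, and no test was made between them or against HGC. All libraries were built from low-input RNA by oligo-dT priming and template switching without strand information, and the cDNA was amplified.

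A spermatozoon is the end product of spermiogenesis, in which the round spermatid condenses its nucleus, builds a flagellum and sheds most of its cytoplasm. Its chromatin is largely closed to transcription, so its mRNAs are generally regarded as remnants of earlier germ cell stages, retained or taken up before ejaculation. In fish that spawn into seawater, sperm rest in the seminal fluid and become motile when they meet the surrounding water.

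The SPZ_EJ libraries held totals of 15395220 to 17886675 counts over all annotated features, and 9377174 to 14340345 of these fell on mRNAs. The mRNA share was 81.0%, 52.4%, 68.7% and 70.6% in pools 1, 2, 3 and 4. Features of ribosomal RNA types took 31.8% in pool 2 and 10.8% to 15.2% in the other pools. Levels below are the counts of an mRNA scaled to a library total of 1e+06 mRNA counts (CPM). CPM are not divided by transcript length, so a rank orders mRNAs by their share of counts and not by molecules. Of 31501 mRNAs in the annotation, 25738 had a count in some pool, 18760 reached 1 CPM in some pool and 12284 reached 1 CPM in all 4 pools. Another 2311 reached 1 CPM in exactly 1 pool. A mean of at least 10 CPM was held by 8684 mRNAs, 1307 of these had at least 100 CPM and 101 had at least 1000 CPM.

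The label was checked against markers of the cell types an ejaculate could hold. Flagellar and sperm-associated products were present but low. The list of 62 mRNAs, called flagellum below, also takes in products named as testis-specific, testis-expressed, spermatogenesis-associated or spermatid. One such member, bromodomain testis-specific (Saurata1B034291), had a mean of 135 CPM in SPZ_EJ and 3409 CPM in HGC. Of the 62, 36 had a mean of at least 10 CPM in SPZ_EJ and 1 had 0 counts in every pool. The summed level of the list was 1273, 2146, 2513 and 1861 CPM in SPZ_EJ pools 1 to 4, against 22909 to 25243 CPM in HGC. The highest members were the axonemal dynein light chain 4 (Saurata1B046479), part of the motor that bends the flagellum, at 173, 313, 653 and 420 CPM (pools 1 to 4), and spermatogenesis-associated 17 (Saurata1B011292), at 69.7, 121, 273 and 158 CPM. Both were lowest in pool 1 and highest in pool 3. Sperm-associated antigen 6 (Saurata1B052743), a component of the central pair of the axoneme, had 45.7, 155, 122 and 71.0 CPM.

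Products typical of leukocytes were also present. The 148 leukocyte mRNAs summed to 30683, 17055, 14296 and 13295 CPM in SPZ_EJ pools 1 to 4, against 719 to 894 CPM in HGC, and 67 of them had a mean of at least 10 CPM in SPZ_EJ. Pool 1 was the highest for 57 of these 67, where 52.5% of all mRNAs at this level were highest in pool 1. Defining members were well above 0. A class II gamma chain (Saurata1B048884), the invariant chain that escorts class II molecules of antigen presentation, had 7989, 4269, 3022 and 2881 CPM. Macrophage-expressed gene 1 (Saurata1B033579), a pore-forming protein of phagocytes, had 818, 613, 327 and 419 CPM, and an immunoglobulin kappa V-IV chain (Saurata1B018044) had 2599, 1594, 1273 and 961 CPM. The flagellum list thus lay below its HGC range and the leukocyte list above its own in every SPZ_EJ pool, differences that were not tested. Leukocyte members at 0 in every pool numbered 8 and included granzyme B(G,H) and 2 of the cathepsin S copies. The leukocyte level moved with pool 1 in the comparisons below, and its part in them was not tested. In bulk libraries, fewer cells of a type and less RNA per cell cannot be told apart.

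Other non-sperm markers were lower than the leukocyte list. The 11 erythrocyte mRNAs summed to 17.5 to 53.1 CPM, with a hemoglobin beta subunit (Saurata1B024116) at 24.1, 2.45, 11.7 and 12.8 CPM, and 1 further beta subunit at 0 counts in every pool. Sertoli, Leydig and interstitial products summed to 38.5 to 78.4 CPM over 17 mRNAs. Both copies of steroidogenic acute regulatory protein, which starts steroid synthesis in Leydig cells, had 0 counts in every pool. Other members were detected, and 2 had a mean of at least 10 CPM. Cholesterol side-chain cleavage enzyme (Saurata1B017245) had 11.2, 4.59, 11.9 and 21.6 CPM, against a mean of 7.90 CPM in HGC. A collagen alpha-1(I) chain (Saurata1B012212) had 9.20, 28.2, 11.6 and 29.2 CPM, against 170 CPM. Epithelial products reached 4262, 2098, 1983 and 2024 CPM in pools 1 to 4 over 64 mRNAs, against 931 to 1215 CPM in HGC, a difference that was not tested. Of the 64, 7 claudins were at 0 in every SPZ_EJ pool. In HGC mucin-2 (Saurata1B027499) alone had a mean of 982 CPM. Keratin 8 (Saurata1B055739) and keratin 18 (Saurata1B045583), partner filaments of simple epithelia, carried much of the SPZ_EJ sum. Keratin 8 had 1570, 424, 411 and 306 CPM, with pool 1 above the others, while keratin 18 had 1036, 1139, 816 and 689 CPM with no such gap. Meiotic and early germ cell products summed to 133, 259, 233 and 406 CPM, against 3662 to 4810 CPM in HGC. Synaptonemal complex protein 1 (Saurata1B010610), which joins paired chromosomes in meiosis, led them at 91.2, 224, 101 and 81.3 CPM.

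**Figure D1:**
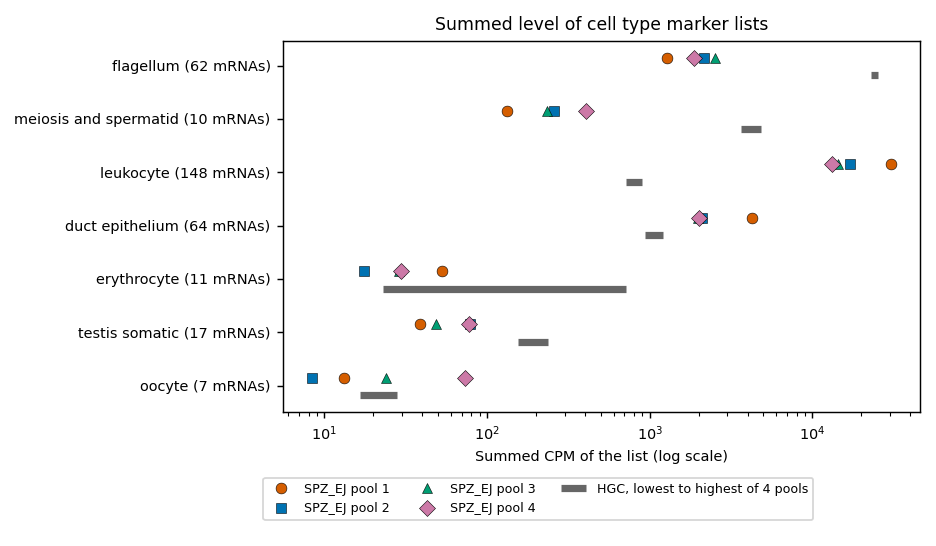
Summed CPM of 7 cell type marker lists (log axis), with each SPZ_EJ pool as a point and the range of the 4 HGC pools as a grey bar below it. In SPZ_EJ the leukocyte list lay between 13295 and 30683 CPM and the flagellum list between 1273 and 2513 CPM, while the HGC flagellum bar lay above 22909 CPM.

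A small set of mRNAs held a large part of the counts, and the most abundant were for the most part products without a name. The 10 mRNAs with the highest mean held 18.2% ± 4.57 (SD, n = 4) of the mRNA counts, with 13.8%, 24.1%, 19.6% and 15.5% in pools 1 to 4. By this share pool 2 was the highest and pool 1 the lowest. These 10 were ranked over all pools, so the share is not each pool's own concentration. With each pool's own 10 most abundant mRNAs pool 2 was again the highest. The lowest was then pool 4 at 15.7%, with pool 1 at 16.9%. With each pool's own 25, pool 1 was the lowest at 21.4%. The number of mRNAs needed to reach 50% of a pool's mRNA counts was 419, 79, 99 and 267, so pools 2 and 3 reached it with far fewer mRNAs than pool 1. Products without a name beyond uncharacterized protein took 31.5%, 50.0%, 50.4% and 45.3% of the mRNA counts. Of the 25 most abundant mRNAs, 18 had no product name and 10 were among the top 25 of every pool. For the top 100, 45 were in the top 100 of every pool. HGC held 7 of the SPZ_EJ top 25 in its own top 25, and 240 of the top 1000 in its own top 1000.

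The most abundant mRNA of the mean ranking, Saurata1B015626, has no product name and had 10114, 52491, 54278 and 37729 CPM in pools 1 to 4, with a mean of 38653 ± 20420 CPM (SD, n = 4). The other 3 pools exceeded pool 1 by 3.73-fold or more. Apolipoprotein Eb (Saurata1B002835), a lipid carrier of plasma and of macrophages, followed it and was highest in pool 1, with 47894, 24579, 18530 and 20775 CPM. An mRNA annotated as lysine-specific demethylase 4A (Saurata1B020593), an enzyme that removes methyl groups from histone H3, came next with 36728, 15819, 12747 and 10703 CPM. It too was highest in pool 1, while pools 2 to 4 lay close together.

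The top 25 fell into 2 patterns set by pool 1. In 19 of them pool 1 was the lowest pool, where 14.8% of all mRNAs of at least 10 CPM had pool 1 lowest. In 5 of them pool 1 was the highest, against the 52.5% given above, and in the remaining 1 the lowest was pool 2 and the highest pool 3. The 19 mRNAs low in pool 1 held 5.43%, 29.8%, 27.9% and 20.003% of the mRNA counts in pools 1 to 4. Their pool 1 level was 0.161 to 0.379 of the mean of the other pools, with a median of 0.201. Without pool 1, 16 of these 19 stayed within 2-fold across pools 2 to 4. The 5 mRNAs high in pool 1 held 13.1%, 6.63%, 5.17% and 5.31% of the counts, and all 5 stayed within 2-fold across pools 2 to 4. The count of 19 was the same with CPM over all features, with TMM scaling and with DESeq2 size factors. Over all mRNAs, pool 1 was the lowest for 8.72%, 21.5% and 22.8% under these scalings.

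Among the 19, 4 carried a product name, and all 4 were signalling enzymes. A pim-1 serine/threonine kinase (Saurata1B004771), a kinase known in mammals for cell survival signals, had 2824, 16547, 12266 and 8957 CPM. A cAMP-specific phosphodiesterase 7A (Saurata1B029602), which breaks down the second messenger cAMP, had 2475, 13959, 13604 and 9714 CPM. cAMP is a signal in the activation of fish sperm motility. The 2 remaining were homeodomain-interacting kinase 2 copies, nuclear kinases that act on transcription factors. Copy Saurata1B032893 had 1765, 7797, 8209 and 6236 CPM, and copy Saurata1B053939 had 1436, 5759, 7896 and 6844 CPM. In these 4 mRNAs every other pool exceeded pool 1 by at least 3.17-fold.

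The homeodomain-interacting kinase products formed a large family in sperm, a set picked after its values were seen. The annotation has 32 such mRNAs, and 22 had a mean of at least 10 CPM, between 11.2 and 6002 CPM. Pool 1 was the lowest in 20 of the 22, where it was the lowest for 14.8% of all mRNAs, and the highest in 1. Of the 22, 1 was stable across all pools, where 29.6% of all mRNAs were. The median pool 1 level was 0.250 of the mean of the other pools. How alike these copies are in sequence was not analysed here. Where copies are alike, reads can be split among them, so the level of a single copy is uncertain. Histone H1 had the same direction. The linker histone packs nucleosomes into a closed fibre, and its main mRNA (Saurata1B045110) had 792, 3227, 2367 and 1431 CPM, with pool 1 lowest. All 3 histone H1 mRNAs of at least 10 CPM were lowest in pool 1.

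The other named mRNAs of the top 25 were highest in pool 1. Prosaposin (Saurata1B002295), the lysosomal precursor of the saposins that help break down sphingolipids, had 9877, 6501, 4022 and 4199 CPM. Saurata1B052083, with no product name, had 20928 CPM in pool 1 and 10975 to 11826 CPM in the others, which were nearly equal. Saurata1B038830, also unnamed, was the steadiest of the 25, with 6839, 5659, 7472 and 6229 CPM and a mean of 6550 ± 781 CPM (SD, n = 4). It and Saurata1B052083 were the 2 stable mRNAs of the top 25.

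**Figure D2:**
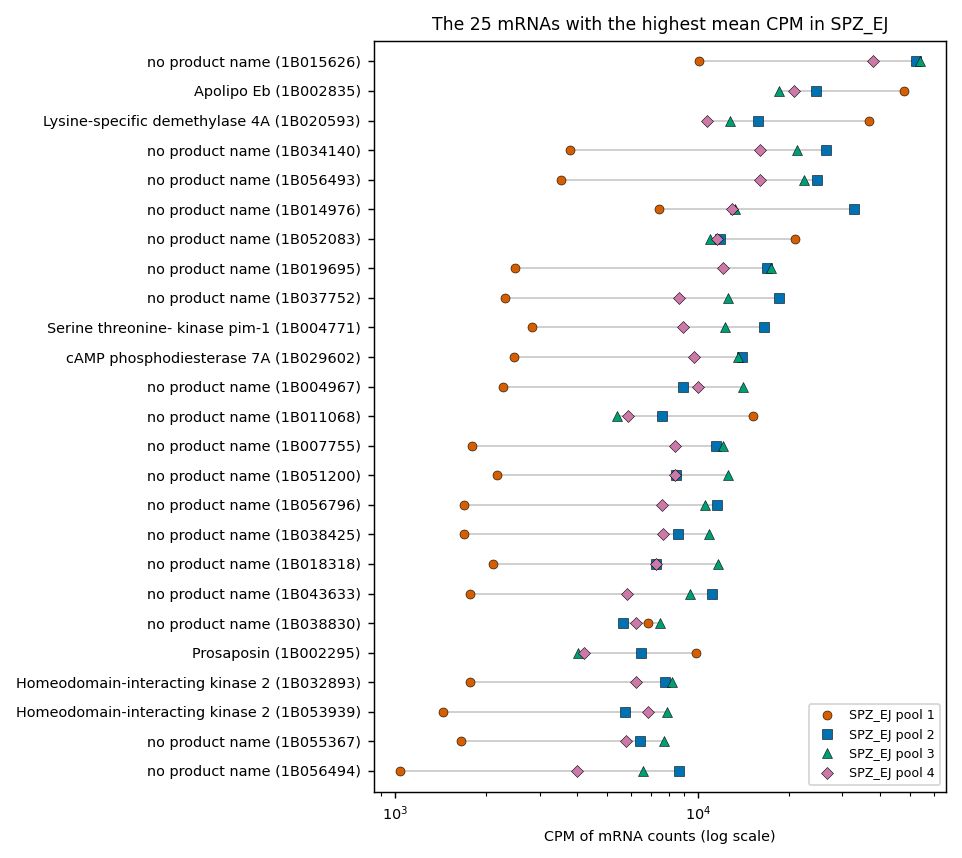
CPM (log axis) of the 25 mRNAs with the highest mean, ordered by that mean from the top, with each SPZ_EJ pool as a point. Pool 1 lay to the left of all other pools in 19 mRNAs and to the right in 5, among them Apolipoprotein Eb at 47894 CPM.

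The same split held over the top 100. Pool 1 was the lowest in 55 and the highest in 41, against 14.8% and 52.5% of all mRNAs. With TMM scaling it was the lowest in 55 and the highest in 34, against 21.5% and 40.6%. The 55 held 7.71%, 38.9%, 38.4% and 27.6% of the mRNA counts in pools 1 to 4, and the 41 held 22.0%, 11.8%, 9.73% and 9.95%. Across pools 2 to 4, 46 of the 55 and 39 of the 41 stayed within 2-fold. The mean HGC level had a median of 571 CPM over the 55 and 60.4 CPM over the 41. Among the named mRNAs high in pool 1 were antigen presentation and lysosome products, and the leukocyte list above was highest in pool 1 as well. Beta-2-microglobulin (Saurata1B018708), the light chain of class I molecules, had 5505, 2035, 2288 and 2289 CPM, and tripeptidyl-peptidase 1 (Saurata1B002632), a lysosomal protease, had 1979, 1155, 514 and 629 CPM. These 2 mRNAs, like the family above, were picked after their values were seen.

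Stability was read as a highest pool at most 2 times the lowest, among mRNAs with a mean of at least 10 CPM. By this rule 2570 of 8684 mRNAs were stable (29.6%), and 6114 were not. The median ratio of the highest to the lowest pool was 2.44, and 538 mRNAs (6.20%) passed 10-fold or had a pool at 0, of which 80 had a pool at 0 counts. The spread was far above counting error. The coefficient of variation (CV, SD over mean) had a median of 0.403, where counting alone would give a median of 0.0524, and 8516 mRNAs (98.1%) had a CV over 2 times their counting CV. A CV at or below counting error was found in 20 mRNAs. In HGC the same rule gave 5179 stable mRNAs of 6707 (77.2%), a difference that was not tested. The paper reports high RNA integrity for HGC and low integrity for SPZ_EJ. It also gives a range of cell numbers for the SPZ_EJ extractions, where HGC had a single number. What part these had in the spread was not tested.

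Abundance did not go with stability at the top. The stable share was 25.9% for mRNAs of 10 to 30 CPM, 31.9% for 30 to 100 CPM, 37.1% for 100 to 300 CPM and 35.8% for 300 to 1000 CPM. For the 101 mRNAs of at least 1000 CPM it was 19.8%, with a median highest-to-lowest ratio of 4.07. Leaving out pool 1 left 5066 stable mRNAs and leaving out pool 2 left 4236, and a range over 3 pools is by construction no wider than over 4.

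**Figure D3:**
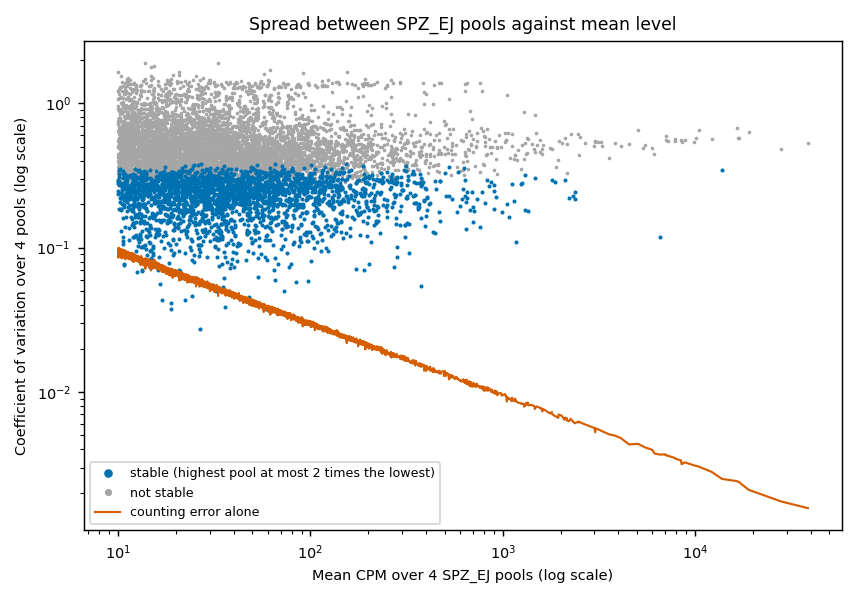
Coefficient of variation over the 4 SPZ_EJ pools against the mean CPM (both log axes) for 8684 mRNAs, with stable mRNAs in blue, the others in grey and the CV that counting alone gives as an orange line. Nearly all points lay above the line, and of the mRNAs of at least 1000 CPM 19.8% were blue.

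Of the 100 most abundant mRNAs, 20 were stable by CPM of mRNA counts and 8 with CPM over all features. The calls of single mRNAs below are by CPM of mRNA counts. The most abundant stable mRNAs with a product name were for the most part products that most cells use. The heat shock protein HSP 90-beta (Saurata1B048529), a chaperone of signalling proteins, led them at 3069, 1898, 2098 and 2430 CPM. Glyceraldehyde-3-phosphate dehydrogenase 2 (Saurata1B010764), a glycolytic enzyme, had 3220, 2227, 2051 and 1973 CPM. ADP/ATP translocase 2 (Saurata1B034715), which carries ATP out of mitochondria, had 2957, 1494, 1947 and 1991 CPM, just inside the 2-fold limit. Pool 1 was the highest in all 3, and the other pools lay within 1.33-fold of each other.

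Creatine kinase B (Saurata1B034398), which buffers ATP through phosphocreatine, had 2263, 2258, 1409 and 1295 CPM. The ribosomal protein 60S L3 (Saurata1B057025) had 2558, 1316, 1638 and 1977 CPM, and elongation factor 1-alpha (Saurata1B048084), which brings aminoacyl-tRNA to the ribosome, had 1629, 1445, 1307 and 1052 CPM. The taurine transporter (Saurata1B041590), a carrier of an osmolyte, had 1987, 1724, 1025 and 1184 CPM. L-lactate dehydrogenase A (Saurata1B013017), which converts pyruvate to lactate, was among the steadier ones at 1319, 1091, 968 and 928 CPM.

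Products linked to immune cells or epithelium were also among the 15 most abundant stable names. Coronin-1A (Saurata1B024622), an actin regulator of leukocytes, had 1777, 1221, 1105 and 961 CPM. Pleurocidin-like peptide WF3 (Saurata1B027609), named for antimicrobial peptides of flatfish, was the steadiest of the 15 at 1269, 1079, 1296 and 1046 CPM, a CV of 0.109. Cathepsin B (Saurata1B013621), a lysosomal protease, had 1218, 1191, 754 and 1063 CPM, and keratin 18 is given above. The remaining 3 of the 15 were Xaa-Pro dipeptidase (Saurata1B042616), which splits dipeptides that end in proline, cofilin-2 (Saurata1B037995), which severs actin filaments, and the ubiquitin-40S ribosomal S27a fusion (Saurata1B022027). Their means were 1310, 1306 and 1139 CPM.

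Among mRNAs with a mean of at least 100 CPM, the lowest CV was that of coactosin (Saurata1B014659), an actin-binding protein, at 403, 352, 377 and 378 CPM with a CV of 0.0542. Counting alone would give it 0.0154. The mitochondrial ATP synthase alpha subunit (Saurata1B020667) had 208, 179, 181 and 189 CPM, and alpha-N-acetylgalactosaminidase (Saurata1B012506), a lysosomal glycosidase, had 182, 183, 156 and 174 CPM. Tubulin alpha-1 (Saurata1B052675), a subunit of microtubules and of the axoneme, had 342, 329, 282 and 348 CPM. The 40S protein S12 (Saurata1B003602) had 198, 212, 215 and 181 CPM, and the catalytic alpha subunit of phosphatase 2A (Saurata1B024004) had 104, 98.1, 111 and 91.8 CPM. The highest pool was 1.14 to 1.23 times the lowest in these 6 mRNAs.

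Gene lists written by product name differed in how many of their members were stable, read against 29.6% over all mRNAs. The cytosolic ribosome had 48 stable of 53 members of at least 10 CPM (90.6%), glycolysis 15 of 20 (75.0%), heat shock proteins and chaperones 14 of 21 (66.7%) and oxidative phosphorylation 37 of 56 (66.1%). All 10 mRNAs annotated as subunits of the T-complex 1 chaperonin, which folds actin and tubulin, were stable. Among lists with at least 7 such members, the lowest shares were those of histones with 1 of 16 (6.25%), early response factors with 3 of 30 (10%), flagellum with 5 of 36 (13.9%) and the mitochondrial ribosome with 3 of 17 (17.6%). Tubulins had 13 of 27 (48.1%), the ubiquitin and proteasome list 84 of 230 (36.5%), translation factors 11 of 33 (33.3%), ion channels and carriers 21 of 75 (28%) and the leukocyte list 14 of 67 (20.9%). With CPM over all features the cytosolic ribosome had 13 of 53 stable, glycolysis 5 of 20, heat shock proteins 1 of 21, oxidative phosphorylation 7 of 56 and all mRNAs 12.7%, and with TMM scaling the cytosolic ribosome had 45 of 53 and all mRNAs 41.9%.

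**Figure D4:**
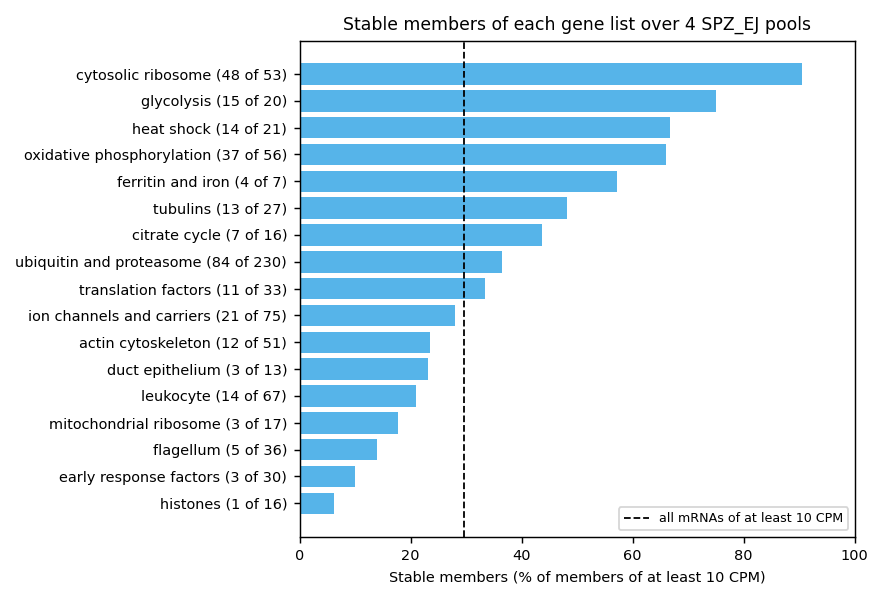
Stable members as a percentage of the members with a mean of at least 10 CPM in each gene list (numbers in brackets), with a dashed line at 29.6%, the share over all 8684 mRNAs. The cytosolic ribosome reached 90.6% and histones 6.25%.

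Glycolysis and oxidative phosphorylation were stable in most members, and their sums were highest in pool 1. The glycolytic list summed to 9536, 7015, 6513 and 6423 CPM in pools 1 to 4, with pool 1 highest in 16 of 20 members, against 52.5% of all mRNAs. With TMM scaling it was highest in 9 of 20, against 40.6%, a share near that of all mRNAs. Pyruvate kinase PKM, the last enzyme of glycolysis, was an exception with 2 mRNAs that went in opposite directions. Copy Saurata1B046469 had 1198, 871, 544 and 602 CPM, and copy Saurata1B012991 had 164, 303, 603 and 442 CPM. Alpha-enolase (Saurata1B027256) was stable at 433, 498, 346 and 347 CPM. Oxidative phosphorylation summed to 5467, 3316, 3851 and 4322 CPM, and the citrate cycle to 1667, 1001, 920 and 1120 CPM. Both sums were highest in pool 1 with CPM over all features, TMM and DESeq2 size factors too.

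In translation, the ribosomal protein mRNAs were steady while some of the factors were not. Exceptions within the cytosolic ribosome were few. The 60S protein L19 (Saurata1B034027) had 438, 540, 2986 and 1901 CPM, with pools 3 and 4 well above pools 1 and 2. Polyadenylate-binding protein 4 (Saurata1B016499), which coats the poly(A) tail, had 2.93, 0.427, 310 and 851 CPM, whereas a polyadenylate-binding 1 copy (Saurata1B014345) had 441, 408, 342 and 309 CPM. The first was thus close to 0 in pools 1 and 2 and abundant in pools 3 and 4, and the second was stable. The mitochondrial ribosome list was highest in pool 4, with 491, 312, 498 and 740 CPM.

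Of the 16 histone mRNAs of at least 10 CPM, 15 were lowest in pool 1, where 14.8% of all mRNAs were. The list summed to 1176, 4115, 3723 and 2606 CPM. A histone H2B 1/2 (Saurata1B051959) had 58.6, 174, 261 and 159 CPM, and a histone H4 (Saurata1B009527) had 43.3, 67.7, 147 and 110.0 CPM. A histone H2A (Saurata1B018265) had another pattern, with 0.418, 0.427, 133 and 326 CPM, so it was detected in pools 3 and 4 almost alone. Replication-dependent histone mRNAs usually lack the poly(A) tail on which oligo-dT priming relies. With CPM over all features pool 1 was the lowest in 10 of the 16.

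Actin cytoskeleton and iron-storage products had their highest sums in pool 1. Actin cytoskeleton mRNAs summed to 18248, 11631, 12140 and 11758 CPM, so by CPM pools 2 to 4 agreed closely and pool 1 lay above them. With TMM scaling the sums were 15763, 13051, 14270 and 10319, with pool 1 still highest but pools 2 to 4 further apart. By CPM pool 1 was the highest in 32 of 51 members, against 52.5% of all mRNAs. With TMM it was highest in 25 of 51, against 40.6%. Myosin-9 (Saurata1B006597), a non-muscle motor, had 3006, 1119, 1726 and 1940 CPM, and subunit 1A of the actin-related 2/3 complex (Saurata1B007351), which branches actin filaments, had 1857, 908, 989 and 849 CPM. Ferritin heavy subunit (Saurata1B024376), the iron store, had 2981, 701, 764 and 728 CPM, 4.08 times the mean of the other pools in pool 1. Heme oxygenase (Saurata1B044740), which releases iron from heme, was stable at 93.4, 79.3, 71.3 and 71.6 CPM.

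Early response factors, genes that respond within minutes to stimulation in many cells, had their highest sum in pool 1. Early growth response 1 (Saurata1B013295), a zinc finger transcription factor, had 219.7, 131, 126 and 109 CPM, just outside the 2-fold limit. Transcription factor jun-B (Saurata1B054056) had 235, 111, 173 and 186 CPM, and NF-kappa-B inhibitor alpha (Saurata1B030054), which holds NF-kappa-B in the cytoplasm, had 241, 112, 136 and 163 CPM. The list summed to 2495, 1378, 1576 and 1648 CPM, with pool 1 highest in 21 of 30 members, against 52.5% of all mRNAs. With TMM scaling it was highest in 17 of 30, against 40.6%.

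Among ion channels and carriers the direction depended on the member. Solute carrier family 22 member 7 (Saurata1B040788), an organic anion transporter, had 156, 435, 543 and 346 CPM, and solute carrier family 25 member 40 (Saurata1B034932), a mitochondrial carrier, had 117, 235, 508 and 414 CPM. In both pool 1 was the lowest. The mitochondrial pore VDAC1 (Saurata1B039443) was stable at 237, 300.3, 279 and 375 CPM, and VDAC2 (Saurata1B043268) had 400, 158, 217 and 309 CPM. Which pool had the highest sum of this list changed with the scaling, as it did for the cytosolic ribosome, histones, translation factors, tubulins, testis somatic products and the ubiquitin list.

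Tubulins, which build the axoneme and the cytoplasmic microtubules, were lower in SPZ_EJ libraries than in HGC by their sum, at 4241 to 5714 CPM against 37458 to 45585 CPM, a difference that was not tested. Within SPZ_EJ a tubulin beta chain (Saurata1B050141) was the highest, with 1486, 923, 1683 and 2948 CPM, and pool 4 stood above the others. Tubulin alpha-1B (Saurata1B053995) was stable at 458, 341, 290 and 327 CPM. Axonemal dynein heavy chains, the large motor subunits of the flagellum, had 10 mRNAs of at least 10 CPM, with 7 lowest in pool 1 and none highest in pool 1, where 14.8% of all mRNAs were lowest and 52.5% highest in pool 1. This family was picked after its values were seen. Dynein heavy chain 2 (Saurata1B033717) had 26.4, 94.0, 176 and 94.3 CPM.

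The pools did not contribute evenly to the spread. Pool 1 was the highest pool for 4560 mRNAs (52.5%), pool 4 for 2649 (30.5%), pool 2 for 906 (10.4%) and pool 3 for 569 (6.55%). The lowest pool was pool 2 for 3735 mRNAs (43%), pool 3 for 2485 (28.6%), pool 1 for 1282 (14.8%) and pool 4 for 1182 (13.6%). TMM scaling shifted the median mRNA by -0.21 in pool 1, 0.16 in pool 2, 0.23 in pool 3 and -0.18 in pool 4 on the log2 scale. Pool 1 was then the highest for 3498 of 8623 mRNAs (40.6%). The lowest was then pool 2 for 34.1%, pool 4 for 31.8%, pool 1 for 21.5% and pool 3 for 12.6%, so the order of the lowest pools depended on the scaling. By pairs, pools 3 and 4 were the most alike. Pearson's r of log2(CPM + 1) was taken over the 8684 mRNAs, a description over mRNAs that share libraries. It was 0.928 for pools 3 and 4, 0.827 for pools 1 and 2 and 0.793 for pools 2 and 3. For pools 1 and 3 it was 0.710, for pools 2 and 4 0.682 and for pools 1 and 4 0.616, the lowest. The share of mRNAs within 2-fold was 85.5% for pools 3 and 4, 77.8% for pools 2 and 3 and 59.9% to 67.7% for the other 4 pairs. Pools 1 and 2 had the lowest share, 59.9%, so the order of the pairs depended on the measure.

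Some mRNAs were carried almost by 1 pool. A pool was said to lead an mRNA with a mean of at least 10 CPM when it held at least 4 times the CPM of every other pool. Such an mRNA can reach that mean through the leading pool alone. Pool 1 led 75 mRNAs (0.864%), pool 4 led 19 (0.219%), pool 2 led 2 (0.023%) and pool 3 led 0 (0%), a total of 96. With TMM scaling the total was 44, of which pool 1 led 37. Without pool 3 the total was 529, without pool 4 281, without pool 2 165 and without pool 1 44. The mRNAs that were at least 4 times below every other pool numbered 158 for pool 1, 168 for pool 2, 6 for pool 3 and 0 for pool 4. By a rule on the gap between 1 pool and the next relative to the whole range, 828 mRNAs (9.53%) had a pool far from the others, and 619 of these had it at the top in pool 1.

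The largest lead was that of pool 1 in Saurata1B038459, with no product name, at 127 CPM against 0.912 to 2.85 CPM in the other pools. Melanoma antigen recognized by T-cells 1 (Saurata1B049113), a membrane protein of pigment cells, had 53.3, 0.320, 0.456 and 1.38 CPM. In pool 2 the unnamed Saurata1B026054 had 57.4 CPM against 0.628 to 2.67 CPM, and Fas apoptotic inhibitory molecule 1 (Saurata1B052844), which blocks receptor-driven apoptosis, had 26.3 CPM against 2.72 to 5.75 CPM. Testis-expressed sequence 11 (Saurata1B055570), a meiotic protein in mammals, had 5.23, 28.3, 2.55 and 7.73 CPM. Its pool 2 level was 3.65 times the next pool, short of the 4-fold rule.

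Pool 3 led none by 4-fold, and its largest ratio was 2.37 in the unnamed Saurata1B002928, at 8.23, 11.2, 26.5 and 10.7 CPM. Dynein heavy chain 7 of the axoneme (Saurata1B022080) had 6.69, 9.70, 36.4 and 17.03 CPM. Of the 3 mRNAs pool 4 led most, 2 were germ cell products. The helicase Mov10l1 (Saurata1B042934), needed for piRNA formation in mouse testis, had 3.14, 2.56, 9.85 and 60.3 CPM, and pachytene checkpoint 2 homolog (Saurata1B043165), which acts on meiotic chromosomes, had 2.09, 5.23, 5.11 and 29.6 CPM. The potassium channel KCNK5 (Saurata1B021511), a background potassium conductance, had 0.767, 2.35, 8.76 and 48.8 CPM.

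**Figure D5:**
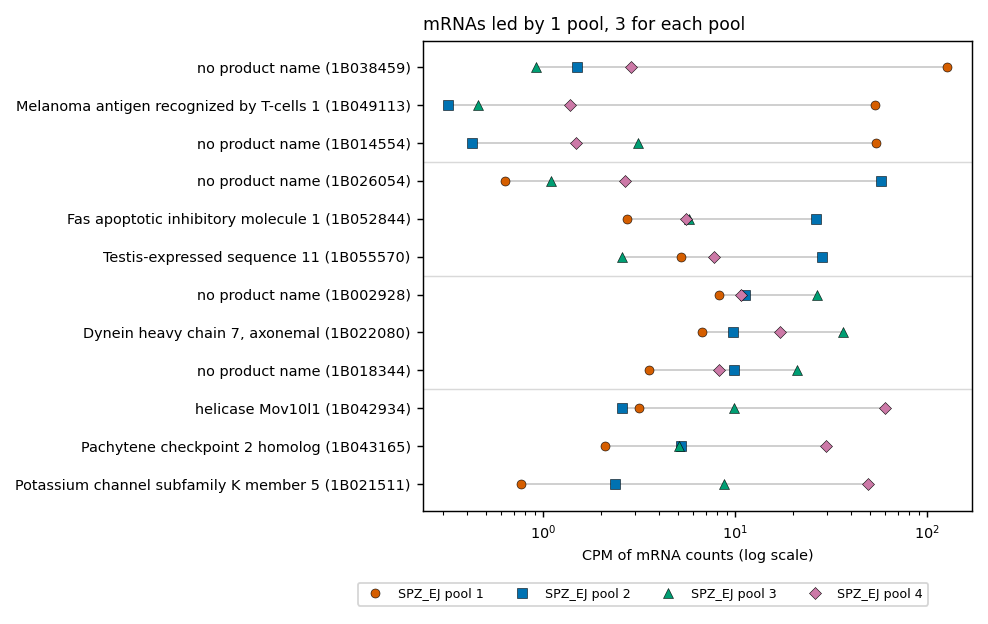
CPM (log axis) of the 3 mRNAs with the largest ratio of 1 SPZ_EJ pool to the highest other pool, in 4 blocks for pools 1 to 4 from the top, with each pool as a point. The pool 1 block held the widest gaps, with 127 CPM against at most 2.85 CPM in its first mRNA, and pool 3 exceeded the next pool by 2.37-fold at most.

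In the list of meiotic and early germ cell products, 4 of 10 mRNAs had a mean of at least 10 CPM. Pool 4 was the highest for 3 of them, where 30.5% of all mRNAs were highest in pool 4. The exception was its most abundant member, synaptonemal complex protein 1, which was highest in pool 2 and lowest in pool 4. An mRNA can pass the 10 CPM limit through its high pools alone. Members below this limit differed in their highest pool. It was pool 1 for the DMC1 and REC8 homologs and pool 2 for synaptonemal complex central element 3 and MEI4-like. For meiosis arrest female 1 it was pool 3, and for meiosis inhibitor 1 pool 4. The RNA helicase DDX4 (Saurata1B036178), the vasa protein of germ cells, had 9.14, 6.72, 64.4 and 200.3 CPM, and Deleted in azoospermia-like (Saurata1B020888), an RNA-binding protein of germ cells, had 4.88, 12.2, 28.2 and 84.6 CPM. Both were low in pools 1 and 2. Factor in the germline alpha (Saurata1B051229), a transcription factor known for oocyte genes in mammals, had 0.349, 1.60, 17.4 and 55.6 CPM, and claudin-7-B (Saurata1B031713), a tight junction protein, had 2.79, 5.01, 134 and 347 CPM. These mRNAs shared a level close to 0 or low in pools 1 and 2 and a higher one in pools 3 and 4, highest in pool 4. The vitellogenins, yolk precursors, were at 0 to 19 counts in each pool, and the list of 7 oocyte products summed to 13.2, 8.42, 23.9 and 72.7 CPM.

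Products of mobile elements were few. Of 25 such mRNAs, 3 had a mean of at least 10 CPM, and none was stable. A probable RNA-directed DNA polymerase of a transposon (Saurata1B017234) had 15.6, 183, 45.7 and 117 CPM, with pool 2 highest.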

How the data were processed

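RNA-seq of 4 SPZ_EJ and 4 HGC pools was used, 3 males to a pool. The authors aligned reads with STAR 2.5.3a and quantified genes with RSEM 1.3.0 (versions from the submitters' processing notes). They built the annotation in part from these same reads. The deposited values are expected counts per gene, all whole numbers here. The genome build is not given in the sources used here, and no coordinates were used.

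CPM was the count over a library's mRNA counts, times 1e+06. Stable meant a mean of at least 10 CPM and a highest pool at most 2 times the lowest. A pool led an mRNA with a mean of at least 10 CPM at 4 times every other pool or more. Counting CV is that of Poisson counts at each pool's depth; the amplified reads carry no molecular identifiers, so it covers counting error only. Low-input amplification can leave fewer distinct mRNA molecules behind a count and can widen the spread between pools, which was not tested. Computation used Python 3.11.15, pandas 2.3.3, numpy 2.4.6, matplotlib 3.10.9, R 4.3.3, edgeR 4.0.16 (TMM) and DESeq2 1.42.0 (size factors), and was tested on simulated data. In the values given here, edgeR and DESeq2 served for scaling alone. No differential test was made, since the pools form 1 group.

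The named mRNAs were the 25 most abundant, the 15 most abundant stable ones with a product name and the 10 with the lowest CV at 100 CPM or more. Added to them were, for each pool, the 3 with the largest ratio to the highest other pool. The 4 most abundant members of 22 lists matched on product names were named too. From these 128, those with clear roles are given. Strays of the name patterns were taken out by name. Members and lists were chosen with earlier results of these data known. Further mRNAs were picked after their values were seen and serve as examples. These are list members below the fourth place and mRNAs ranked 26 to 100, as well as the families.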

Additional observations from a re-analysis of the deposited data

Results flagged for a closer look

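Values in which 1 SPZ_EJ pool stood far from the other 3 are listed with the gap to the nearest pool as a part of the whole range. Each is past the 95% limit of Dixon's test for 4 samples. Normally distributed values pass it by chance in about 1 of 20 groups, and CPM need not follow such a distribution. Of all 8684 mRNAs, 828 (9.53%) passed the limit, 619 of them with pool 1 highest. These mRNAs share the same 4 libraries, so 9.53% cannot be read against 1 in 20. Of the 128 named mRNAs 18 passed (14.1%), and of the 22 lists 3 passed. The named mRNAs include, for each pool, the 3 with the largest ratio to the highest other pool, which were chosen by such a gap. Their share therefore cannot be read against 9.53%. No cause was tested.

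Pool 1 was the high one for most. The gap was 0.985 in Saurata1B038459, 0.98 in Melanoma antigen recognized by T-cells 1, 0.95 in Saurata1B014554 and 0.915 in Saurata1B052083. It was 0.982 in keratin 13 (Saurata1B026388), 0.907 in keratin 8 (Saurata1B055739) and 0.915 in claudin-11 (Saurata1B032042). All are in the epithelial list by product name, which does not give the cell type they came from. Other mRNAs of that list did not share this. Of the 13 with a mean of at least 10 CPM, pool 1 was the highest in 5 and the lowest in 5, against 52.5% and 14.8% of all mRNAs. Another keratin 8 copy (Saurata1B037713) had 15.8, 42.7, 80.8 and 58.8 CPM in pools 1 to 4. Ferritin heavy subunit had 0.972 and ferritin middle subunit 0.882. Xaa-Pro dipeptidase had 0.907 and subunit 1A of the actin-related 2/3 complex 0.861. By summed CPM the gap was 0.976 for ferritin and iron, 0.95 for duct epithelium and 0.923 for the actin cytoskeleton. With TMM scaling the actin sums were 15763, 13051, 14270 and 10319 in pools 1 to 4.

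Pool 2 was the high one in Saurata1B026054 (0.964), Fas apoptotic inhibitory molecule 1 (0.872) and synaptonemal complex protein 1 (0.863). Pool 3 was the high one in Saurata1B002928 (0.838). Pool 4 was the high one in pachytene checkpoint 2 homolog (0.886), helicase Mov10l1 (0.874) and KCNK5 (0.834).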

How the results depend on the processing

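No paired analysis was possible because the result comes from no test between groups. The 2570 stable mRNAs of 8684 (29.6%) became 929 of 7317 (12.7%) with CPM over all features. A limit of 1.5-fold gave 622 and 3-fold gave 5684. At a mean of at least 30 CPM there were 1506, out of fewer mRNAs. By level the stable share was 31.9% to 37.1% from 30 to 1000 CPM, against 25.9% from 10 to 30 CPM. It was 19.8% at 1000 CPM or more. Leaving out 1 pool gave 3384 to 5066. TMM scaling gave 3611 of 8623 (41.9%) and DESeq2 size factors 3689 of 8627 (42.8%). CPM without the 20 most abundant mRNAs gave 3698, and all these counts were within 1.5 times. The 96 led mRNAs became 44 with TMM, 43 with DESeq2 size factors, 415 at a mean of at least 1 CPM and 1490 at a lead of 2 times, and 44 to 529 with 1 pool left out. The median CV of 0.403 became 0.494 with CPM over all features, 0.344 with TMM and 0.341 with DESeq2 size factors, and 0.298 to 0.416 with 1 pool left out. These settings for the CV were chosen after seeing the data. The 12284 mRNAs at 1 CPM in all pools became 6290 at 10 CPM and 12459 to 13044 with 1 pool left out. The share of the 10 most abundant ranged from 16.5% to 19.8% with 1 pool left out. Ranking by the lowest pool kept 20 of the 25 most abundant, and leaving out any 1 pool kept 24. Thinning to equal depth left 2569 stable and 88 led mRNAs. At 10 CPM the smallest library held 93.8 counts, so depth limits mainly mRNAs below the 10 CPM limit.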
